A study of Mus musculus with 3 samples.

Results

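The genes described here are those of the proteasome, chosen by symbol alone: every row of the expression table whose symbol begins with Psma, Psmb, Psmc, Psmd or Psme followed by a number. The rule found 45 of the 24054 genes in the table. It used no measured value. Of the 45 genes, 31 encode constitutive subunits of the 26S proteasome, 4 the exchangeable catalytic subunits of the immunoproteasome and thymoproteasome, 1 the testis-type alpha subunit Psma8, 3 assembly chaperones of the 19S particle and 5 activators. The last, Psmc3ip, matched by symbol but encodes a recombination factor and not a proteasome subunit.

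The proteasome is the protease complex that degrades most short-lived and misfolded proteins of the cytosol and nucleus. Its 20S core is a barrel of stacked alpha and beta rings with the active sites facing inwards, and the 19S regulatory particle on its ends binds ubiquitin-tagged proteins, removes the tag and unfolds the chain with a ring of ATPases. In neurons the complex also turns over synaptic proteins. When proteasome activity falls short, the transcription factor NRF1, encoded by Nfe2l1, is known to raise the subunit genes together through antioxidant response elements in their promoters.

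RNA was sequenced from primary cortical neurons of embryonic day 17 C57BL/6 mice after 7 days of culture. The control was kept at 21% oxygen, and the other cultures were exposed to 0.2% oxygen for 7 hours, either without added hormone (hypoxia) or with 5 nM of the thyroid hormone T3 (hypoxia with T3). The labels give the strain and no other genotype, and no culture at 21% oxygen with T3 was analysed here. Each of the 3 groups is 1 library, so no difference has a replicate check and none was tested. The intervals given are exact 95% Clopper-Pearson intervals on the reads of a gene, which cover counting error only.

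Wherever 3 values of a gene follow one another below, they are those of control, hypoxia and hypoxia with T3, in this order. The libraries held 18081904, 17118865 and 22533574 reads, so that 1 read was worth 0.0425 to 0.0552 normalised counts (CPM, reads per 1e+06 of a scaled library size). The label of neurons was checked against markers: the 10 neuron markers summed to 8297, 8835 and 8893 CPM, although among them Tubb3 was at 1771, 873 and 739 CPM. Microglia markers (9 genes) summed to 3.37 to 3.95 CPM with Tmem119 and P2ry12 at or under 3 reads in every library, and endothelial markers (7 genes) to 2.65 to 3.38 CPM with Cdh5 and Cldn5 at or under 3 reads. Astrocyte markers (7 genes) summed to 434, 429 and 455 CPM with Gjb6 at or under 3 reads, and oligodendrocyte lineage markers (7 genes, none at 3 reads or under in every library) to 328, 188 and 191 CPM. The part of these cells in the proteasome values was not tested, and in bulk RNA fewer cells of a type and less RNA per cell cannot be told apart.

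The short stretches before the listed gene starts of a few members are shown first, because the shared regulation of these genes is known from such promoters and because the genes below include the ones that differed most between the libraries. They are from the RefSeq promoter table, build GRCm38.p6, 5′ to 3′ on the strand of the gene, and end 2 bases after the listed start. Capitals mark the antioxidant response element core TGACNNNGC on either strand. Psmb5 and Psmb6 are catalytic subunits with a match close to the listed start, Psmb4 had the highest ratio of hypoxia over control, and Psme4 had the lowest. The stretches are chr14:54617994-54618095 (minus strand) for Psmb5, chr11:70525329-70525358 (plus strand) for Psmb6, chr3:94886957-94887058 (minus strand) for Psmb4 and chr11:30771747-30771776 (plus strand) for Psme4. Annotated starts differ: the RefSeq span of Psmb6 begins 33 bases before the start listed for it, and GENCODE begins Psme4 49 bases before its listed start. For this reason 30 bases are printed for each of these 2 genes.
Psmb5: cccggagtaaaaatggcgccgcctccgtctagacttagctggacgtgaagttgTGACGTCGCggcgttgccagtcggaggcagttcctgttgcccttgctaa
Psmb6: agaggcggactaaagagagTGACGGAGCgc
Psmb4: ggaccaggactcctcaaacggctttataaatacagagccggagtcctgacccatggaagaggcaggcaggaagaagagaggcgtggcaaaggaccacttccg
Psme4: gaacctcccggcgctgcggctGCAGCGTCA

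The TGACNNNGC core occurred in 6 of the 41 listed member promoters (14.6%) when windows of 300 bases, from 250 before to 50 after the start, were searched on both strands. It occurred in 12.4% of all 32851 listed promoters. The 6 were those of Psmb5, Psmb6, Psmc6, Psmd9, Psmd12 and Psme4. Counted from the listed start, the match began 47 bases before it in Psmb5, 9 before it in Psmb6 and 31 before it in Psmd9. GENCODE begins Psmd9 58777 bases before its listed start, so the place of that match depends on the annotation. Counted from the start of its RefSeq span, the match of Psmb6 lies inside the gene and begins 24 bases after that start. In Psme4 it lay on the opposite strand from position -7 to 2, where 1 is the listed start. The CCAAT box was found in 36.6% of member promoters and 37.4% of all promoters, and ACGTG, the core of the site bound by hypoxia-inducible factors, in 19.5% and 19.6%. The matches are descriptions of these windows, and shares of members and of all promoters lay close together. Promoters were listed for 38 of the 45 members, some with more than 1 start. Psma8, Psmb1, Psmb2, Psmb7, Psmc3, Psmd3 and Psmd7 had none in the table.

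At a mean of at least 1 CPM, 41 members were compared, beside 12692 genes in all that passed the same filter. Psma8, the alpha subunit of meiotic cells, had 0 reads in all 3 libraries, which allows up to 0.139, 0.166 and 0.128 CPM (3 reads, counting error only). Psmb8, an immunoproteasome catalytic subunit, had 0, 5 and 3 reads. Psmb9, another such subunit whose gene lies near it on chromosome 17, had 3, 2 and 3 reads, and Psme2b, a near copy of Psme2, had 5, 1 and 7. These 4 genes were too low for a comparison.

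Across the constitutive particle, levels were higher in hypoxia than in control by a modest amount. Of the 41 members compared, 39 had a ratio of hypoxia over control above 0 on the log2 scale (with 1 CPM added to each value), against 54.5% of all genes compared. The median log2 ratio was 0.37 for the members and 0.05 for all genes. Psmb4, Psmd8, Psma7, Psmd4 and Psmb6 were at least 1.5-fold higher, 5 of 41 against 8.46% of all genes, and Psme4 alone was at least 1.5-fold lower, 1 of 41 against 13.8%. At 2-fold there were 0 members in either direction, against 1.99% of all genes higher and 4.92% lower. The reads of all 45 members together made up 0.350% of the control library and 0.404% of the hypoxia library, and their summed level was 2931 and 3825 CPM, 1.30-fold higher (1.29 to 1.32).

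That shift was measured on the authors' scaling of the CPM values. The deposited CPM values sum to 837997 in control and 945496 in hypoxia, and with equal sums of the libraries the median over all genes was lower by 0.16. On that scale 34 of 41 members were above 0, 0 were at least 1.5-fold higher, Psme4 remained the 1 member at least 1.5-fold lower, and the members' median was 0.20. Psmd1, Psmd10, Psmd11, Psmd14 and Psme3 were then below 0 with Psmc3ip and Psme4. The distance of the members' median from that of all genes was 0.31 as deposited and 0.30 with equal sums.

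**Figure D1:**
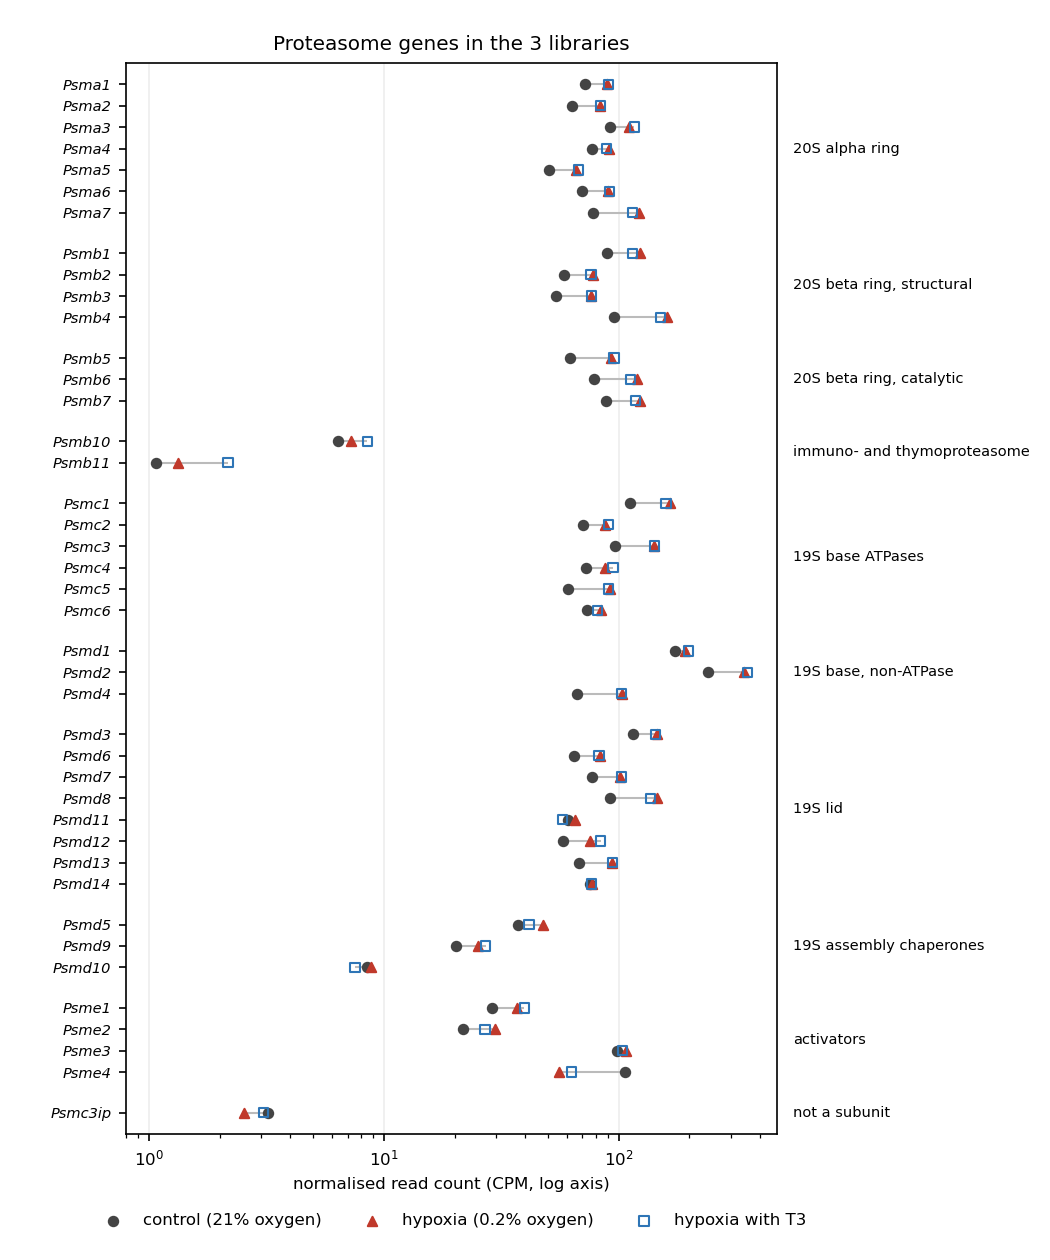
Normalised read counts (CPM, log axis) of the 41 proteasome genes compared, grouped by their place in the complex, in control (filled circles), hypoxia (triangles) and hypoxia with T3 (open squares), 1 library each, with a grey line from the lowest to the highest. In most rows both hypoxic libraries sit together to the right of control, and Psme4 is reversed, at 106 CPM in control and 55.6 and 62.8 CPM in the hypoxic libraries.

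In the alpha ring, whose 7 subunits form the gate through which substrates enter, every subunit was higher in hypoxia (median log2 ratio 0.37), and their sum was 502, 651 and 652 CPM. Psma7 stood out, at 77.5, 122 and 115 CPM, 1.57-fold higher in hypoxia than in control (1.47 to 1.67). Psma2 was at 63.4, 83.3 and 83.7 CPM, 1.31-fold higher (1.22 to 1.42). Psma4, the alpha subunit with the smallest difference, was at 77.1, 90.7 and 88.6 CPM, 1.18-fold (1.10 to 1.26). Both hypoxic libraries were above control for each of these genes and close to each other. Psma1, Psma3, Psma5 and Psma6 lay between, at ratios from 1.2 to 1.30. Psma5 shares 58.7% of its 31-base words with other genes, among them the processed pseudogenes Gm8394 and Gm12989, so its reads cannot be assigned firmly.

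The beta rings showed the largest ratios of hypoxia over control among the module sums. The structural beta subunits Psmb1 to Psmb4, which build the inner rings without cutting, summed to 297, 437 and 417 CPM, 1.47-fold higher in hypoxia than in control (1.42 to 1.52). Psmb4 (chromosome 3, 94884324 to 94886958, minus strand, GRCm38) was at 95.2, 160.2 and 150.2 CPM, 1.68-fold higher in hypoxia (1.59 to 1.78), the highest ratio among the members. It has no match to the TGACNNNGC core in its listed window. Psmb1 was at 88.9, 123 and 114 CPM and Psmb3 at 54.1, 75.8 and 76.5 CPM, 1.39-fold and 1.40-fold higher. Psmb2 was at 58.5, 77.4 and 76.2 CPM, 1.32-fold higher. Control was the lowest of the 3 libraries for all 4 genes.

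The 3 constitutive catalytic subunits were higher together, with a sum of 229, 336 and 326 CPM, 1.47-fold (1.42 to 1.53). Psmb5, which carries the chymotrypsin-like activity that proteasome inhibitor drugs target (chromosome 14, 54614120 to 54617995, minus strand), was at 61.9, 92.9 and 95.6 CPM. Its ratio of CPM was 1.502 (1.40 to 1.61), and it fell just short of the 1.5-fold rule once 1 CPM was added (log2 ratio 0.58). Psmb6 carries the caspase-like activity (chromosome 11, 70525324 to 70527858, plus strand). It had 78.2, 119.5 and 112 CPM, a ratio of 1.53 in hypoxia over control (1.43 to 1.63). Psmb7, with the trypsin-like activity, had 88.5, 124 and 118 CPM, a ratio of 1.40 (1.31 to 1.49). For each of them both hypoxic libraries were above control. Psmb5 shares 71.7% of its words with other genes, most with the processed pseudogene Gm3375, and its reads are likewise uncertain.

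**Figure D2:**
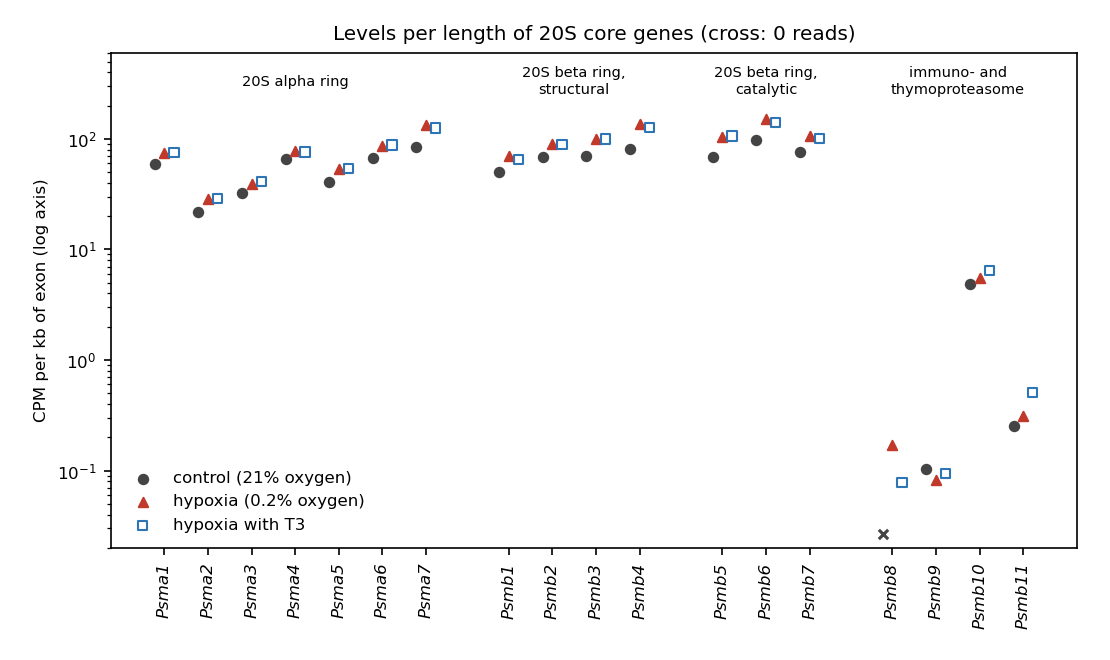
Levels per length (CPM per kb of exon, log axis) of the alpha ring, beta ring and exchangeable catalytic genes in control (filled circles), hypoxia (triangles) and hypoxia with T3 (open squares), 1 library each, with a cross for 0 reads. The constitutive genes lie between 21.8 and 150 CPM per kb, Psmb10 between 4.84 and 6.49, and Psmb8, Psmb9 and Psmb11 at 0.511 or below.

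The catalytic subunits that interferon exchanges into the core were scarce. Psmb10, which replaces Psmb7 in the immunoproteasome, was at 6.35, 7.24 and 8.50 CPM, and its ratio of hypoxia over control was 1.14 with an interval that holds 1 (0.890 to 1.46). Per kb of exon, Psmb7 was at 76.3, 107 and 101 CPM and Psmb10 at 4.84, 5.52 and 6.49 CPM, so the level of the constitutive gene was 15.7, 19.3 and 15.6 times that of its counterpart. Per kb of exon Psmb5 was at 68.8, 103 and 106 CPM, and its immunoproteasome counterpart Psmb8 at 0, 0.170 and 0.0784 CPM. Psmb6 was at 98.0, 150 and 141 CPM per kb and its counterpart Psmb9 at 0.103, 0.0817 and 0.0944. Psmb11, the thymus-type catalytic subunit, had 23, 24 and 51 reads. The last is 2.03 times the control level (1.22 to 3.49) and 1.64 times the hypoxia level (0.989 to 2.78).

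The ATPase ring of the 19S base, which unfolds substrates, was higher in hypoxia in all 6 subunits, with a sum of 485, 656 and 657 CPM, 1.35-fold (1.32 to 1.39). The subunits fell into unequal sizes of difference. Psmc5 was at 61.0, 91.5 and 90.4 CPM, Psmc1 at 111, 165 and 159 CPM, and Psmc3 at 96.2, 141 and 142 CPM, ratios of hypoxia over control of 1.499, 1.49 and 1.46. Psmc2 was at 70.7, 87.2 and 90.3 CPM, 1.23-fold higher (1.15 to 1.32). Psmc4 at 72.6, 86.9 and 94.6 CPM and Psmc6 at 72.9, 84.1 and 81.2 CPM had ratios of 1.197 (1.12 to 1.28) and 1.15 (1.07 to 1.24). The counting intervals of the 3 larger ratios and the 3 smaller ones do not overlap, but this division was made from the ratios themselves. It describes these libraries only, and how often genes divide in this way was not counted. Whether the subunits form separate classes was not tested.

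The other base subunits are the scaffolds Psmd1 and Psmd2 and the ubiquitin receptor Psmd4. Psmd2, with the most reads of any member, was at 239, 342 and 353 CPM, 1.43-fold higher in hypoxia than in control (1.38 to 1.48). Psmd4 was at 66.4, 103 and 102 CPM, 1.55-fold higher (1.45 to 1.66). Psmd1 was at 173, 192 and 198 CPM, a ratio of 1.11 (1.06 to 1.16) that was below 1 with libraries scaled to equal sums (log2 ratio -0.02). Adrm1, the other ubiquitin receptor of the base, which the symbol rule leaves out, was at 63.7, 102 and 100.4 CPM, 1.60-fold higher (1.49 to 1.71). In the deposited CPM values Psmd4 and Adrm1 thus both passed the 1.5-fold rule, while the authors' deposited fold of Psmd4 was 1.49.

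The lid, which holds the deubiquitinase, showed the widest spread among constitutive modules. Its 8 genes summed to 608, 787 and 776 CPM, 1.29-fold higher in hypoxia (1.26 to 1.32). Psmd8, a small lid subunit added late in assembly, was at 91.6, 146 and 136 CPM, 1.59-fold higher (1.503 to 1.69). Psmd13 was at 67.4, 93.2 and 94.0 CPM, 1.38-fold higher. Psmd7, the partner of the deubiquitinase, was at 77.3, 101 and 103 CPM, 1.31-fold higher, and Psmd12 at 57.7, 75.3 and 83.8 CPM, 1.30-fold higher. Psmd3 at 114, 145 and 143 CPM and Psmd6 at 64.3, 82.8 and 82.4 CPM were 1.27-fold and 1.29-fold higher.

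The remaining lid genes were nearly level. Psmd14, the deubiquitinase itself, was at 75.1, 77.2 and 76.7 CPM, a ratio of 1.03 with an interval that holds 1 (0.956 to 1.10). Its partner Psmd7 was higher, and the interval of Psmd14 lies below that of Psmd7 (1.23 to 1.40). The 2 genes differ in length, at 88.7 kb for Psmd14 and 8.10 kb for Psmd7 from first to last base. Over all genes compared, the median log2 ratio was -0.12 at 30 to 100 kb and 0.33 under 10 kb. The part of gene length in this difference was not tested. Psmd11, a lid subunit known to limit assembly, was at 60.5, 65.3 and 57.6 CPM, a ratio of 1.08 (0.997 to 1.17). In the deposited CPM values it was the only constitutive subunit whose level in hypoxia with T3 was below control, at a ratio of 0.952 (0.882 to 1.03). The authors' deposited table of hypoxia with T3 and control, which is scaled otherwise, also had Psmd14 below control, at a signed fold of -1.03. With equal sums Psmc6 and Psmd14 were below control as well. With libraries scaled to equal sums, Psmd14 and Psmd11 had log2 ratios of hypoxia over control of -0.13 and -0.06.

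Assembly chaperones of the base were less abundant than the subunits they help to place. Per kb of exon, Psmd5, Psmd9 and Psmd10 lay between 5.90 and 8.51 CPM in control, against a median of 48.9 for the 17 genes of the 19S base and lid. Psmd5 was at 37.4, 47.4 and 41.5 CPM and Psmd9 at 20.3, 25.2 and 27.1 CPM, 1.27-fold (1.15 to 1.40) and 1.24-fold (1.09 to 1.42) higher in hypoxia. Psmd10, also known as gankyrin, was at 8.43, 8.84 and 7.53 CPM, with a ratio of 1.05 (0.842 to 1.30) that was below 1 with equal sums (log2 ratio -0.10). In the deposited CPM values Psmd5 and Psmd9 were above control in both hypoxic libraries, and Psmd10 was below it in hypoxia with T3. With equal sums Psmd5 was also below control in hypoxia with T3.

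The activators were divided. Psme1 and Psme2, which together form the interferon-inducible PA28 cap, had 28.9, 36.8 and 39.6 CPM, and 21.7, 29.6 and 27.0 CPM, 1.27-fold (1.14 to 1.42) and 1.36-fold (1.201 to 1.55) higher in hypoxia. Psme3, which forms the nuclear cap PA28 gamma, was at 98.3, 107 and 104 CPM, a ratio of 1.09 (1.02 to 1.16) that was below 1 with equal sums (log2 ratio -0.05). Psme4, which encodes the single-chain nuclear activator PA200 (chromosome 11, 30771775 to 30881150, plus strand), went the other way, at 106, 55.6 and 62.8 CPM. It was 1.91-fold lower in hypoxia than in control (1.77 to 2.06), the lowest ratio among the members. Because of Psme4 the 5 activators summed to less in hypoxia, at 255, 229 and 234 CPM. Psmc3ip, the recombination factor, was at 3.20, 2.54 and 3.06 CPM, with an interval of hypoxia over control that holds 1 (0.535 to 1.17).

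For most members the difference was larger than counting error. The interval of hypoxia over control lay above 1 for 34 of the 41 genes and below 1 for 1, Psme4, while 37.8% of all genes compared had an interval above 1 and 30% below. The 6 whose interval held 1 were Psmb10, Psmb11, Psmc3ip, Psmd10, Psmd11 and Psmd14. These intervals say how well the reads fix the ratio of these 2 libraries and leave out the variation between cultures. They also take the scaling of the deposited CPM values as given, so the counts depend on it. Psmd1 and Psme3, with intervals above 1 as deposited, had ratios below 1 with equal sums. In the authors' deposited table of hypoxia and control, 0 of 41 proteasome genes had a p-value or a false discovery rate below 0.05, while 6.34% of the 13152 genes listed had such a p-value and 0.646% such a rate. The smallest p-value of a member in the authors' deposited table was 0.109, for Psme4, with a false discovery rate of 0.999. The labels do not name that test, which was of 1 library against 1. The authors' folds in that table are on another scaling than the CPM values. They were above 1 for 38 of 41 members, against 49.5% of the genes listed, with a members' median of 1.24. Psmb4, Psmd8 and Psma7 reached 1.61, 1.53 and 1.503, while Psmd4 was at 1.49 and Psmb6 at 1.47.

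**Figure D3:**
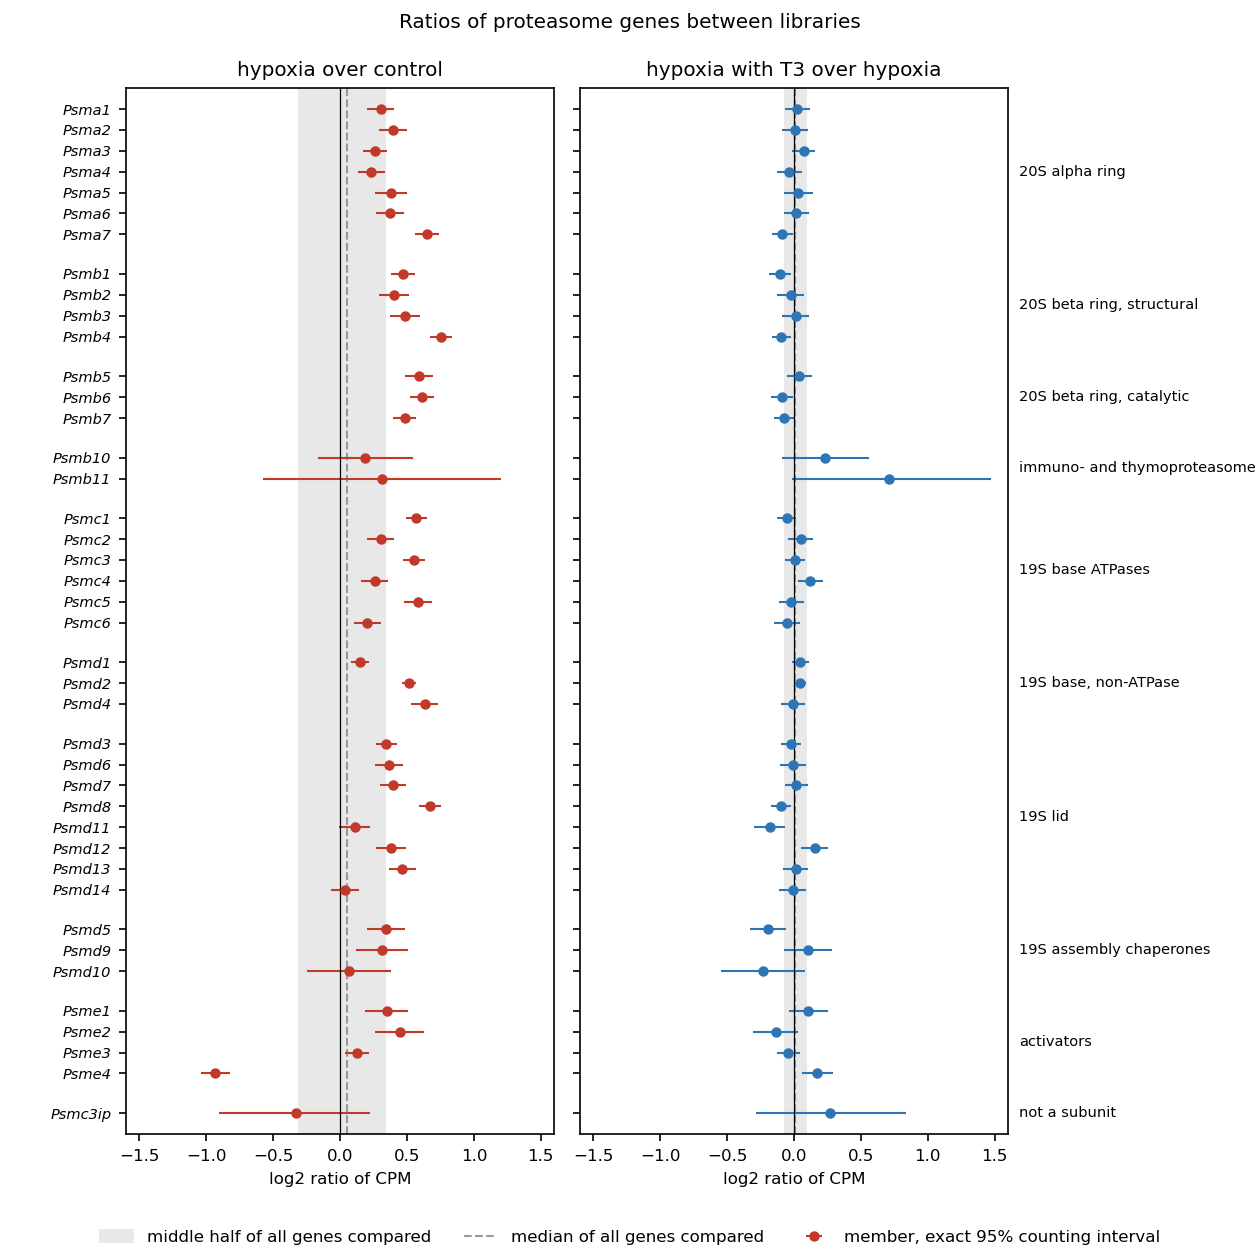
Log2 ratios of CPM for the 41 proteasome genes compared, hypoxia over control on the left and hypoxia with T3 over hypoxia on the right, 1 library each, with exact 95% counting intervals. The grey band spans the central 50% of all genes compared and the dashed line their median, both with 1 CPM added. On the left 39 points lie right of 0 (34 with libraries scaled to equal sums) and Psme4 far to the left at a ratio of 0.524, while on the right 21 of 41 lie right of 0 (15 with equal sums).

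Gene length was set beside these ratios, since short genes had higher ratios across the whole table. Gene span, from first to last base in RefSeq, was known for all 41 members and for 99.6% of the genes compared, with medians of 11.6 kb and 25.2 kb. Among genes under 10 kb the median log2 ratio of hypoxia over control was 0.33, with 77.8% above 0 and 21.6% at least 1.5-fold higher. Of the 19 members in that class, 18 were above 0 and 5 at least 1.5-fold higher, with a median of 0.39, and the share of members at 1.5-fold was near that of all short genes. All 5 members that passed the 1.5-fold rule are in this class. With equal sums 0 members passed it, and Psmd10 and Psme3 of this class were below 0 with Psmc3ip.

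Members of 10 to 100 kb lay further from the median of genes of their length. Among genes of 10 to 30 kb the median was 0.17 and 66.6% were above 0, while all 15 members were above 0 with a median of 0.37. Among genes of 30 to 100 kb the median was -0.12 and 38.8% were above 0, while all 6 members were above 0 with a median of 0.26. These counts are of the deposited CPM values: with libraries scaled to equal sums, Psmd11, Psmd1 and Psmd14 of this class were below 0. In order of span these 6 were Psmb2, Psma6, Psmd11, Psmb7, Psmd1 and Psmd14, at 32.1, 34.2, 44.6, 55.9, 74.7 and 88.7 kb, and their log2 ratios were 0.40, 0.37, 0.11, 0.48, 0.15 and 0.04. With spans from GENCODE, an alternative chosen after seeing the data, this class held 8 members, all above 0, with a median of 0.34.

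Psme4 is the one compared member in the class of 100 kb or more, at 109 kb. Genes of that class had a median of -0.36, and 36.1% were at least 1.5-fold lower. Of its 1988 genes, 410 (20.6%) had a ratio at or below that of Psme4 (-0.92), against 6.03% of all genes. The part that gene length has in the value of Psme4 was not tested.

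**Figure D4:**
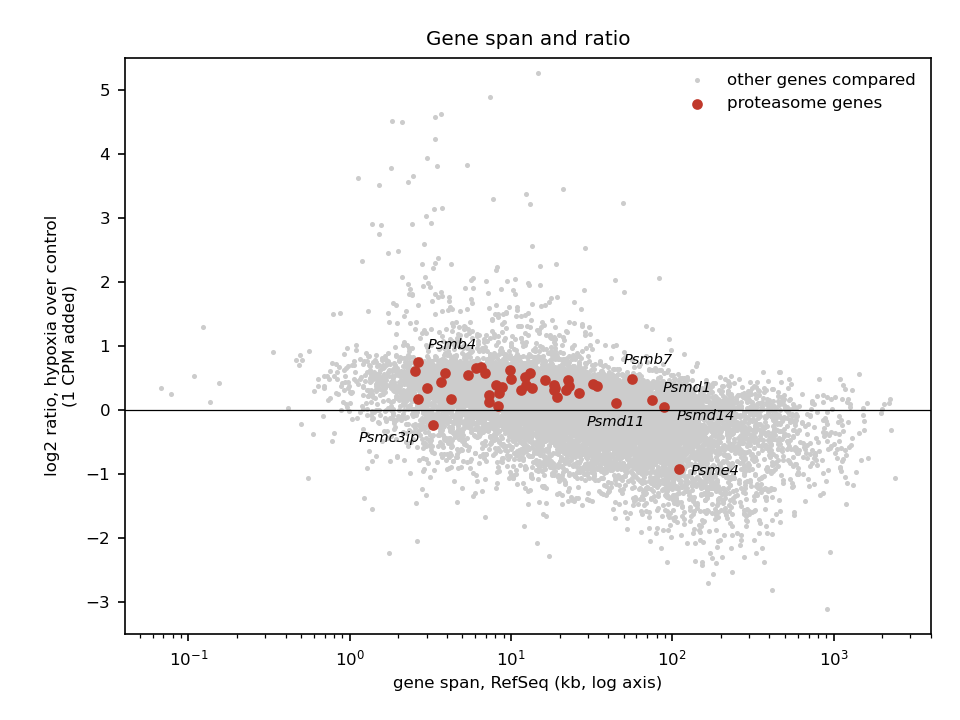
Gene span (RefSeq, kb, log axis) against the log2 ratio of hypoxia over control with 1 CPM added, for the proteasome genes (red) and the other genes compared (grey), 1 library each. Red points stay above 0 up to Psmd14 at 88.7 kb apart from Psmc3ip, while the grey cloud slopes below 0, and Psme4 at 109 kb lies at -0.92. With libraries scaled to equal sums, Psmd1, Psmd10, Psmd11, Psmd14 and Psme3 were below 0 as well.

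Adding T3 at low oxygen went with little difference in proteasome genes. Of the 41 members, 21 had a ratio above 0, against 54.1% of all genes compared, and with libraries scaled to equal sums 15 did. At 1.5-fold there were 0 members in either direction, against 0.717% of all genes higher and 0.276% lower, and at 2-fold again 0 members, against 0.126% higher and 0.063% lower. The members' median was 0.0058, beside 0.01 for all genes. Their summed level was 3825 CPM in hypoxia and 3806 with T3, a ratio of 0.995 (0.985 to 1.005).

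Small differences past counting error were found in 10 members. With T3, Psmd12, Psme4 and Psmc4 were higher than in hypoxia, at ratios of 1.11 (1.04 to 1.19), 1.13 (1.04 to 1.22) and 1.09 (1.02 to 1.16). In 7 members the interval lay below 1, among them the chaperone Psmd5 at 0.876 (0.798 to 0.961) and the lid gene Psmd11 at 0.882 (0.815 to 0.954). Psma7, Psmb1, Psmb4, Psmb6 and Psmd8 were also in this group, at 0.929 to 0.942. This comparison shares the hypoxia library with the first one. Across all genes, 11.1% had an interval above 1 and 6.71% below.

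Hypoxia with T3 against control, a comparison that shares the control library with the first, shows how far the hypoxic culture with hormone was from normoxia. Of the 41 members, 37 had a ratio above 0, against 56.4% of all genes, with medians of 0.39 and 0.08. Psmb4, Psmb5, Psmd4 and Psmb11 were at least 1.5-fold higher, 4 of 41 against 8.73%, and Psme4 was at least 1.5-fold lower, 1 of 41 against 13.1%. At 2-fold there were 0 members in either direction, against 2.06% of all genes higher and 4.59% lower. With libraries scaled to equal sums 33 members were above 0 and 0 at least 1.5-fold higher.

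Psmb4 was 1.58-fold higher in hypoxia with T3 than in control (1.49 to 1.67), and Psmb5 and Psmd4 were each 1.54-fold higher (1.44 to 1.65 and 1.45 to 1.65). Psmd8, Psma7 and Psmb6, at 1.49-fold, 1.48-fold and 1.44-fold, stayed under the rule. Psme4 was at 0.592 of its control level (0.554 to 0.632). The authors' deposited table of hypoxia with T3 and control gave 0 of 41 members a p-value or a false discovery rate below 0.05, against 6.18% and 0.791% of the genes listed, and the smallest p-value of a member was 0.180, again for Psme4.

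Across the 3 libraries the order control, hypoxia, hypoxia with T3 from lowest to highest was found in 19 members and the order control, hypoxia with T3, hypoxia in 18. The orders here are of the deposited CPM values, and their shares over all genes were not counted. With equal sums 15 of the 41 members, and not 21, were higher in hypoxia with T3 than in hypoxia. In 31 of the 41 members the 2 hypoxic libraries did not differ beyond counting error. Of all genes compared, 11.1% had an interval above 1 and 6.71% below. Psmd10 and Psmd11 had their lowest value in hypoxia with T3 and their highest in hypoxia, and Psme4 and Psmc3ip were highest in control.

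Levels per length differed several-fold among the subunits of the constitutive particle. Per kb of exon of the principal transcript, the 31 genes had medians of 53.3, 70.1 and 68.7 CPM. The lowest of them was Psmd11 in each library, at 21.3, 22.9 and 20.2 CPM per kb, and the highest Psmb6, at 98.0, 150 and 141. The highest was thus 4.61, 6.53 and 6.97 times the lowest. The 14 genes of the 20S rings had a median of 67.5, 88.4 and 88.2 CPM per kb, and the 17 of the 19S base and lid 48.9, 61.7 and 65.0. Psme4 was at 16.3, 8.56 and 9.67 CPM per kb, below every constitutive subunit.

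The other genes of the pathway come from fixed lists. Beside the counts of these lists in hypoxia over control, the shares of all genes compared were 54.5% above 0, 8.46% at least 1.5-fold higher and 13.8% lower, and 41.1%, 4.08% and 19.4% with libraries scaled to equal sums. Of 18 other subunits, assembly factors, inhibitors and associated enzymes, 13 were above 0 in hypoxia over control, 3 were at least 1.5-fold higher and 0 lower, with a median of 0.24 (10 above 0, 0 higher, 1 lower and a median of 0.06 with equal sums). Pomp, the maturation factor that completes the 20S core, was at 62.4, 87.8 and 85.6 CPM, 1.41-fold higher (1.31 to 1.51). The chaperones that assemble the alpha ring were uneven: Psmg1 was at 9.36, 14.7 and 14.0 CPM, 1.58-fold higher (1.31 to 1.90), while its partner Psmg2 was at 12.2, 12.5 and 12.1 CPM. The second pair, Psmg3 and Psmg4, had 7.32, 6.90 and 5.44 CPM, and 7.65, 7.12 and 8.93 CPM, and the intervals of hypoxia over control of Psmg2, Psmg3 and Psmg4 hold 1. In hypoxia with T3 the interval of Psmg3 lay below 1 against control (0.584 to 0.944) and that of Psmg4 above 1 against hypoxia (1.002 to 1.57). Zfand2a, which encodes a stress-induced zinc finger protein that binds the proteasome, had 48.8, 80.4 and 83.5 CPM, a ratio of 1.65 (1.52 to 1.78). Ube3a, a ubiquitin ligase that binds the proteasome, was lower, at 97.8, 70.3 and 65.1 CPM, 1.39-fold (1.30 to 1.49).

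Of 11 genes of the NRF1 axis, which controls proteasome genes, 6 were above 0 and 2 at least 1.5-fold higher, with a median of 0.14 that was -0.03 with equal sums. The share above 0 was that of all genes. Nfe2l1 itself was at 179, 206 and 204 CPM, 1.15-fold higher in hypoxia (1.10 to 1.202). Its log2 ratio of 0.20 was little above the 0.16 by which equal sums lowered the median of all genes. Its relative Nfe2l2, which encodes NRF2, was at 3.34, 6.19 and 4.98 CPM, 1.85-fold higher (1.37 to 2.53). Maff, a small Maf partner of both factors, differed most, at 2.87, 39.2 and 33.0 CPM, 13.6-fold higher in hypoxia (10.5 to 18.0). Genes that release and process NRF1 were mixed. Syvn1, a ubiquitin ligase of the endoplasmic reticulum, was at 47.1, 66.7 and 71.1 CPM, while its cofactor Sel1l was at 222, 164 and 159 CPM and the deglycosylase Ngly1 at 12.4, 9.44 and 8.08 CPM.

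Upstream of the proteasome, most genes of ubiquitin supply, activation and delivery were higher in hypoxia as well. Of 17 such genes, 14 were above 0 in hypoxia over control, 3 at least 1.5-fold higher and 1 lower, with a median of 0.42 (11 above 0, 1 higher, 1 lower and a median of 0.25 with equal sums). Ubb, a polyubiquitin gene, had 1144, 2032 and 1963 CPM, a ratio of 1.78 (1.75 to 1.81). Rps27a, which encodes ubiquitin fused to a ribosomal protein, had 131, 211 and 214 CPM, a ratio of 1.61 (1.53 to 1.69). Both hypoxic libraries were well above control for each. Ubxn1, a cofactor of the segregase p97, was the third gene past the 1.5-fold rule, and Uba6, an alternative activating enzyme, was the 1 gene at least 1.5-fold lower. Both were named after their values were seen, at 44.2, 66.8 and 63.1 CPM and at 29.2, 19 and 19.8 CPM. Summed over the 17 genes the level was 1.47-fold higher in hypoxia (1.46 to 1.49), beside 1.35-fold (1.33 to 1.36) for the 31 constitutive subunits of the proteasome. Ubb, with the most reads of the 17, weighs most in the first sum. By median log2 ratio the 2 sets lay closer, at 0.42 and 0.39.

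Immunoproteasome genes are induced with antigen presentation genes in inflamed tissue, so those are given beside them. Of 13 listed, 7 were high enough to compare, 6 of these were above 0 in hypoxia over control and 2 at least 1.5-fold higher (5 and 1 with equal sums). The 2 were Irf1 and H2-D1. Irf1, an interferon regulatory transcription factor named after its values were seen, had 1.44, 5.85 and 7.10 CPM, a ratio of 4.08 (2.71 to 6.29). H2-D1, a class I heavy chain, had 22.8, 36.5 and 35.4 CPM, a ratio of 1.60 (1.42 to 1.80), and B2m, the shared light chain, 8.57, 13.1 and 15.8 CPM, a ratio of 1.53 (1.25 to 1.86) that with 1 CPM added stayed under the 1.5-fold rule. The interferon-induced genes Ifit1, Ifit3 and Usp18 were at or under 3 reads in all libraries. Psmb8 and Psmb9, which lie among such genes, were at 5 reads or fewer in each library.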

How the data were processed

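RNA from 3 cultures was sequenced as 1 library each. Per the submitters' processing notes, bcl2fastq 2.17, Bowtie2 2.1.0 and RSEM 1.2.15 and the mouse build mm10 were used. The authors deposited CPM values scaled by TMM (a trimmed mean of ratios). Every CPM value was a whole multiple of 1 read (100% within 0.01), so the values were converted to whole reads. The intervals take these counts as given and leave out any error in assigning reads to genes. With 1 library a group a count test has no residual degrees of freedom, and none was run. In the authors' deposited comparison tables the signal columns are the same values times a constant per library and were not used. Their signed fold, p-value and false discovery rate columns were deposited by the authors without the test being named.

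Genes whose mean reached 1 CPM were compared as log2 ratios after 1 CPM was added. Folds are ratios of CPM with exact 95% Clopper-Pearson intervals on the reads of the gene in both libraries. The rules of 1.5-fold and 2-fold use the values with 1 CPM added. Depth of 17118865 to 22533574 reads a library gives a floor of 3 reads, 0.128 to 0.166 CPM. Spans came from RefSeq (GRCm38.p6), exon lengths from the longest principal transcript in GENCODE M21, and a copy was called where at least 50% of the 31-base words of a gene occur in other genes. Motifs were searched in the RefSeq promoter windows. Scripts in Python 3.11.15 with scipy 1.17.1, pandas 2.3.3, numpy 2.4.6 and, for the figures, matplotlib 3.10.9 were tested on simulated data.

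The members, the other lists and the rules were chosen with earlier results of these data known. All genes matching the symbol rule could be named. From the other lists the named genes are Nfe2l1, Nfe2l2, Pomp, Adrm1, Psmg1 to Psmg4, Ubb and, per comparison with control, the 4 genes of each list with the largest difference where the mean reached 5 CPM. A few genes that this rule would name are not reported here and were left out of the ubiquitin list. Alternatives were other added values, other filters, other scalings, leaving out genes with copies, the 31 constitutive subunits alone, and, chosen after seeing the data, leaving out Psme4, spans from GENCODE, and lengths from the union of exons.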

Additional observations from a re-analysis of the deposited data

How the results depend on the processing

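In both comparisons with control the share of members above 0 stayed above that of all genes and the members' median stayed above 0 under every alternative run, and no result reversed among those past a rule. Scaling each library to the same sum moved most: for hypoxia over control 0 members were at least 1.5-fold higher, the median was 0.20 and the ratio of summed levels 1.157, and for hypoxia with T3 over control the values were 0, 0.20 and 1.136. For hypoxia with T3 over hypoxia the ratio of sums was 0.982 on that scale and 0.980 with median-of-ratios size factors, and the members' median of 0.0058 was then below 0, at -0.01 and -0.02. It was also below 0 at a mean of at least 5 CPM, without genes with copies and for constitutive subunits only (-0.0065 in each), and without Psme4 (-0.0004), so its sign was not stable. Median-of-ratios size factors gave 3 members at least 1.5-fold higher and a ratio of sums of 1.253 for hypoxia over control, and 0 and 1.229 for hypoxia with T3 over control. With the constitutive 20S and 19S subunits only, 0 members were at least 1.5-fold lower in either comparison with control, and the ratios of sums were 1.348 and 1.34. Without Psme4, an alternative chosen after seeing the data, the count lower was also 0 and the ratios of sums 1.334 and 1.325. By construction the last 4 values leave Psme4 out. Of 123 ratios of single members, 72 moved by more than their counting error with equal sums and 6 with median-of-ratios size factors, and 0 did under the other alternatives. No paired analysis was possible because each group is 1 library. Leaving out a replicate was likewise not possible. Depth limits Psma8, Psmb8, Psmb9, Psme2b and Psmb11, which had 51 reads or fewer.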
